A study of Mus musculus with 4 samples.

Results

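Class I antigen presentation was followed through 10 mouse genes: the class I light chain B2m, the heavy chains H2-D1 and H2-K1, the peptide supply genes Tap1, Tap2 and Tapbp, the immunoproteasome subunits Psmb8, Psmb9 and Psmb10, and Cd74, the invariant chain of class II molecules. A probe set was taken as a member when its only gene symbol in the array platform's annotation was one of these 10. This gave 17 of 12422 probe sets and all 10 genes, of 8251 genes that the array names by a single symbol. B2m was clearly higher on the arrays titled Hemangioblast than on those titled hCD4, at about 3.83-fold, and it was the only member gene to pass the test in the reported fit. H2-D1, H2-K1 and Cd74 had values above those of hCD4 on both Hemangioblast arrays by most of their probe sets without passing, and the transporter, tapasin and immunoproteasome probe sets mostly overlapped between the groups.

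The study placed 2 arrays under the title Hemangioblast and 2 under hCD4, and all of them carry RNA from cells of the Scl+/hCD4 mouse embryonic stem (ES) cell line, kept beforehand on STO feeder cells with LIF. The design text describes embryoid bodies grown for 2.75 days, from which Flk-1+Scl+ cells were sorted with antibodies to Flk-1 and human CD4, and blast colonies that were picked by hand and pooled after replating. It names the populations hCD4 and Blast, whereas the source fields read as hemangioblasts for the arrays titled Hemangioblast and as ES cells for those titled hCD4, so the labels leave unsettled where sorted cells, colonies or ES cells were hybridised. Array titles are therefore used as group names, no added treatment is named for either group, and the strain of the line is not given in the sources used here. No label says that replicates were separate cultures, so the spread behind each p-value is that of these arrays alone and may be technical.

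Class I molecules show peptides from inside the cell to cytotoxic T cells and are read by natural killer cells. A heavy chain such as H2-D1 or H2-K1 reaches the cell surface stably only when bound to B2m and a peptide. Peptides are cut by the proteasome, whose standard catalytic subunits can be replaced by the interferon-inducible Psmb8, Psmb9 and Psmb10, are pumped into the endoplasmic reticulum by the Tap1-Tap2 transporter, and are loaded with the help of tapasin, the product of Tapbp. ES cells and early embryonic cells are known for low class I levels, while macrophages and other blood cells carry more.

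Promoter windows of 8 of the 10 genes were taken from the RefSeq table for GRCm38.p6. A window spans 250 bases before to 50 after a gene start. Cd74 was left out of the sequence search by plan. The B2m and H2-D1 stretches are shown because both genes bear on the difference between B2m and the heavy chains, and the interval between Psmb9 and Tap1 because these neighbours are read away from each other from the same short interval. Each is printed 5' to 3' on the strand of its gene (Tap1 for the interval) and ends at the base before the gene start. Capitals mark matches, on either strand, to the motifs searched.

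B2m, chr2:122147537-122147686, plus strand: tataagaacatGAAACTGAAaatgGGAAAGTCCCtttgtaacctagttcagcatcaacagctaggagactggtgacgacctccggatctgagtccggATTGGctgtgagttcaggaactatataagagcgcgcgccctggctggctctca
H2-D1, chr17:35262919-35263093, plus strand: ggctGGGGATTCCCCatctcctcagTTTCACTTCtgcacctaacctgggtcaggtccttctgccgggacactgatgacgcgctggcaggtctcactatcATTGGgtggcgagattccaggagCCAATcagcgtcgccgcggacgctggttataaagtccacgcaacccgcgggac
Psmb9 to Tap1, chr17:34187331-34187555, plus strand: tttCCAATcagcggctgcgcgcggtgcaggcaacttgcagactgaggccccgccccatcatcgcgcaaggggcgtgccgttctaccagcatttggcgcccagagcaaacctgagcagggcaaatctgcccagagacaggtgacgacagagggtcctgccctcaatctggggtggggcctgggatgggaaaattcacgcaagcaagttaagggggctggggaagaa

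The motifs were the core of the interferon-stimulated response element (GAAANNGAA), the gamma-activated site (TTCNNNGAA), the CCAAT box (CCAAT) and the NF-kappaB consensus. Over all 32851 windows of the table, 8.56% held the first, 8.3% the second, 37.4% the CCAAT box and 8.46% the NF-kappaB consensus. B2m held the interferon core 139 bases before its start, an NF-kappaB match 126 bases before it and a CCAAT box on the opposite strand 53 bases before it. H2-D1 held overlapping NF-kappaB matches 171 and 170 bases before its start and CCAAT boxes at 76 and 53 bases. A variant of the interferon element, GAANNGAAA, was searched only after the sequences had been seen. It was present in 7.52% of all windows, and in H2-D1 it lay 150 bases before the start on the opposite strand.

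H2-K1 shares this arrangement, as the 30 bases from the NF-kappaB match to the variant interferon element show. The stretches are identical at 29 of 30 positions and differ by T18A, counted from 1 at the 5' end with the H2-D1 base first. H2-K1 has a pair of overlapping windows in the table, and the stretch begins 111 bases before the start used for the upstream one.
H2-D1, chr17:35262923-35262952, plus strand: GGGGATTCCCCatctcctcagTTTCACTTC
H2-K1, chr17:34000429-34000458, minus strand: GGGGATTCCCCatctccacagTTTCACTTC

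Of the remaining windows, that of Psmb8 held a gamma-activated site 97 bases before its start, that of Tapbp held a pair of CCAAT boxes on the opposite strand, and those of Psmb9 and Tap1 shared the CCAAT box near the Psmb9 end of the printed interval. No letters of these motifs were found in the Psmb10 window. A match is a description of the letters and not a measured binding site.

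Before scaling, the median intensity was 166 to 198 per array, and the Gapdh control gave a 3' to 5' ratio of 1.33 and 1.03 for Hemangioblast and 1.13 and 1.03 for hCD4, and the actin control 1.63 and 1.16 against 1.36 and 1.12. With 2 arrays a group, precision is limited throughout. Intensities below are scaled to a common trimmed mean. A change is the Hemangioblast minus hCD4 difference of log2(scaled intensity + 16) from limma, with its standard error (SE) and a p-value adjusted by Benjamini-Hochberg over all 12422 probe sets. The threshold was an adjusted p of 0.05, and 4.48% of the probe sets passed it (362 higher and 194 lower on the Hemangioblast arrays, or 222 and 50 without scaling). In bulk RNA such as this, a lower share of cells that express a gene and less RNA per cell cannot be told apart.

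B2m, the light chain shared by all class I molecules, was the member with the clearest difference. Its scaled intensity was 2795 and 2790 on Hemangioblast arrays, against 763 and 675 on hCD4 arrays. The arrays of the groups lay far apart, and the 2 Hemangioblast arrays were nearly equal. The means were 2793 ± 3.53 (SD, n = 2) against 719 ± 62.8, so that B2m rose with a log2 change of 1.94 (SE 0.145, adjusted p = 0.000333, 95% interval 1.60 to 2.27). Setting each Hemangioblast array against each hCD4 array gave 4 log2 differences, which ran from 1.85 to 2.03. B2m ranked at position 29 of 12422 probe sets by p-value and at position 143 by the size of its rise. It passed under all 12 alternative settings tried for it, with log2 changes of 1.85 to 2.02 and adjusted p-values from 7.13e-06 to 0.0171.

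**Figure D1:**
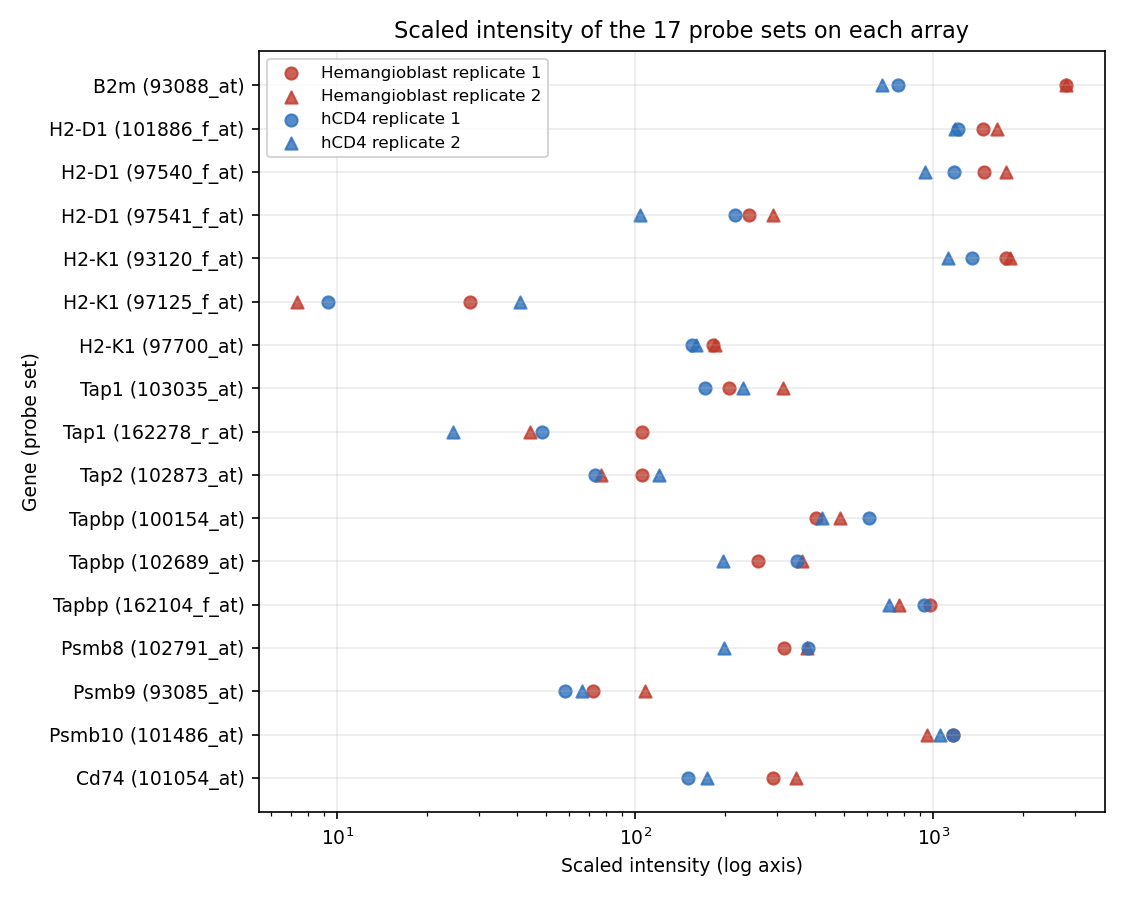
Scaled intensity (log axis) of each of the 17 member probe sets on each of the 4 arrays, red for Hemangioblast and blue for hCD4, with circles for replicate 1 and triangles for replicate 2. The B2m arrays stand far apart at 2795 and 2790 against 763 and 675, while most probe sets of Tap1, Tap2, Tapbp, Psmb8 and Psmb10 have interleaved colours.

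The heavy chains were measured by 3 probe sets each, and none passed, beside 4.48% of all probe sets. For H2-D1, a classical class I heavy chain, the family probe set of smallest p-value read 1478 and 1753 on Hemangioblast arrays, against 1173 and 938 on hCD4 arrays. Both Hemangioblast values lay above both hCD4 values, and the log2 difference was 0.61 (SE 0.172, adjusted p = 0.101). The probe set with the highest mean log2 value of H2-D1 read 1472 and 1637 against 1211 and 1182, a log2 difference of 0.37 (SE 0.145, adjusted p = 0.242). This gap was small but again without overlap. The third, the dimmest, read 240 and 290 against 215 and 104 (0.75, SE 0.335, adjusted p = 0.322), so that most of its difference came from hCD4 replicate 2. Without that array the difference of this probe set was 0.27.

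H2-K1, the other classical heavy chain, gave a similar picture by its bright probe set. It read 1760 and 1814 on Hemangioblast arrays, against 1353 and 1116 on hCD4 arrays, with no overlap. The means were 1787 ± 38.3 against 1235 ± 167 (SD, n = 2), a log2 difference of 0.53 (SE 0.154, adjusted p = 0.110, 95% interval 0.18 to 0.89). Its probe set outside the family class read 182 and 186 against 155 and 160 (0.21, SE 0.244, adjusted p = 0.782). The remaining one was dim, at 28.0 and 7.35 against 9.29 and 40.9, and gave no order of the groups (-0.24, SE 0.499, adjusted p = 0.892). Over the 6 heavy-chain probe sets the log2 differences ran from -0.24 to 0.75 with a median of 0.45. Of the 6, 3 had an unadjusted p under 0.05, as did 16.3% of all probe sets and 18.2% of all genes.

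All heavy-chain probe sets but 1 carry the suffix _f_at, which the array maker gave to probe sets whose probes match several members of a gene family, so signal of H2-D1, H2-K1 and related class I genes may be mixed in them. Their level is therefore uncertain for either gene alone. The 95% interval of B2m began at 1.60, above the upper ends of all 6 heavy-chain intervals, the highest of which was 1.52. The difference between B2m and the heavy chains was not tested itself.

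Peptide transport and loading genes showed no difference past the threshold by any of 6 probe sets, beside 4.48% of all probe sets called. For Tap1, which forms the peptide transporter together with Tap2, the brighter probe set read 206 and 314 on Hemangioblast arrays, against 172 and 229 on hCD4 arrays. The groups overlapped (log2 difference 0.34, SE 0.278, adjusted p = 0.662, 95% interval -0.30 to 0.97). The dimmer probe set of Tap1 read 105 and 44.4 against 48.6 and 24.4 (0.74, SE 0.442, adjusted p = 0.489). Tap2 read 106 and 76.8 against 73.0 and 120, with the highest and the lowest value on hCD4 arrays (-0.05, SE 0.345, adjusted p = 0.976, 95% interval -0.85 to 0.74).

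Tapbp encodes tapasin, which bridges the transporter and the empty heavy chain. Its brightest probe set read 972 and 768 on Hemangioblast arrays, against 930 and 712 on hCD4 arrays (0.08, SE 0.195, adjusted p = 0.907, 95% interval -0.36 to 0.53). Its next probe set read 405 and 486 against 606 and 424 (-0.19, SE 0.219, adjusted p = 0.780), and the dimmest read 257 and 362 against 349 and 196 (0.21, SE 0.302, adjusted p = 0.834). The probe sets overlapped between the groups throughout and did not share a sign.

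None of the 3 immunoproteasome probe sets passed, beside 4.48% of all probe sets. Psmb8, which takes the place of Psmb5, read 315 and 376 on Hemangioblast arrays, against 380 and 198 on hCD4 arrays. Its highest and its lowest value were both on hCD4 arrays, which lay 1.91-fold apart (log2 difference 0.31, SE 0.299, adjusted p = 0.721). Psmb9, which takes the place of Psmb6, was dim at 72.4 and 108 against 57.9 and 66.2, without overlap (0.42, SE 0.332, adjusted p = 0.637, 95% interval -0.34 to 1.19). Psmb10, which takes the place of Psmb7, was bright on all arrays, at 1162 and 955 against 1162 and 1053 (-0.07, SE 0.163, adjusted p = 0.910, 95% interval -0.44 to 0.30). Its interval spans a fold of 0.735 to 1.23, whereas that of Psmb8 reaches from 0.769 to 1.99.

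Psmb9, Tap1, Psmb8 and Tap2 follow each other in that order on chromosome 17 in the RefSeq table. Over their 5 probe sets 0 passed in the limma fit, 0 had an unadjusted p under 0.05, and the log2 differences ran from -0.05 to 0.74. Over all probe sets 4.48% passed and 16.3% had an unadjusted p under 0.05, so counts of 0 among 5 say little.

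Cd74 belongs to class II presentation, where it escorts new class II molecules and fills their groove until it is cut away. It read 289 and 347 on Hemangioblast arrays, against 150 and 174 on hCD4 arrays, with a clear gap between the groups. The means were 318 ± 40.5 against 162 ± 17.2 (SD, n = 2), a log2 difference of 0.90 that missed the threshold (SE 0.232, adjusted p = 0.0751, 95% interval 0.37 to 1.44). With dim probe sets left out, the remaining 8573 were fitted and adjusted anew, and the adjusted p was 0.0246. With 1 array left out it lay between 0.132 and 0.308.

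**Figure D2:**
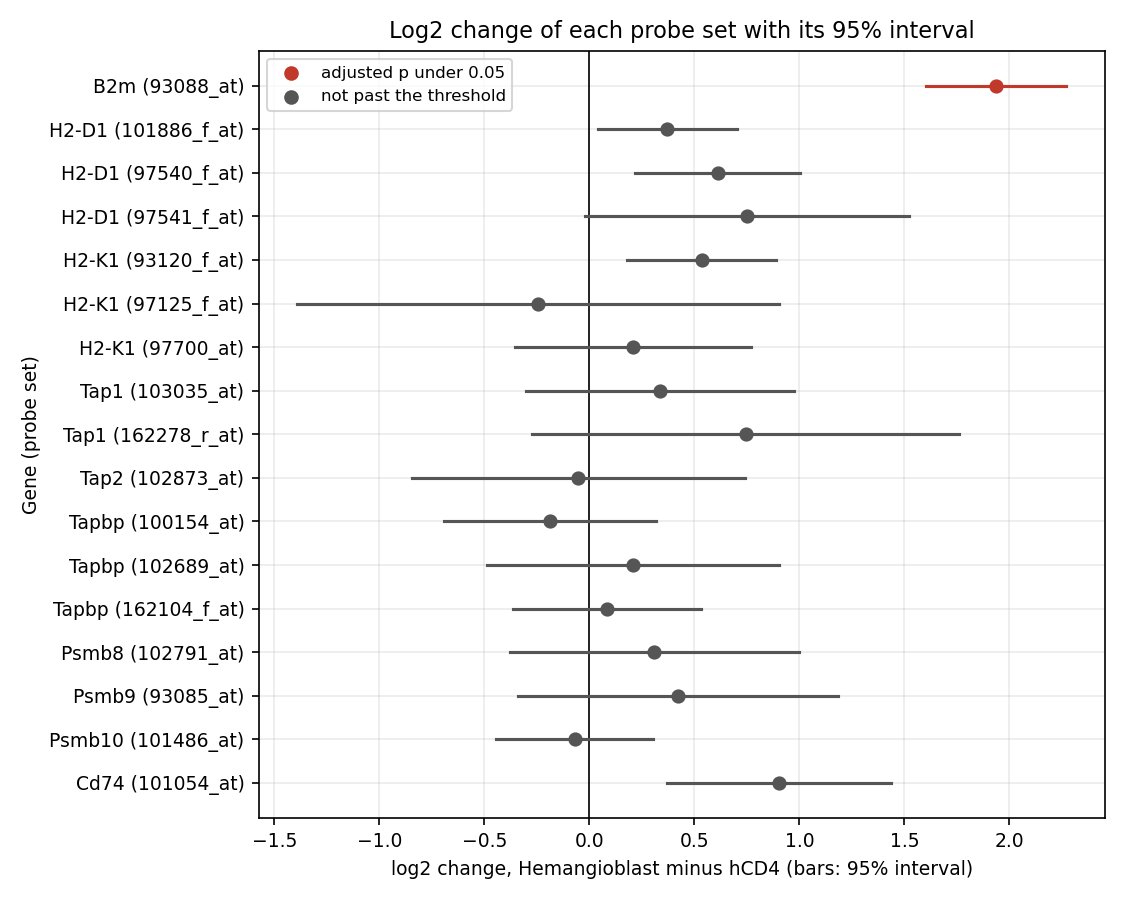
Log2 change (Hemangioblast minus hCD4) of each member probe set, with bars for the 95% interval and red for an adjusted p under 0.05. Only the B2m interval, 1.60 to 2.27, belongs to a probe set past the threshold, and the Cd74 interval runs from 0.37 to 1.44.

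Counted together, 1 of 17 member probe sets passed, and 1 of 10 genes, beside 5.36% of all genes. On 8 of the 17 both Hemangioblast arrays lay above both hCD4 arrays (B2m, Cd74, all 3 of H2-D1, 2 of H2-K1 and Psmb9), on 0 both lay below, and on 9 the groups overlapped. Over all 12422 probe sets 24.8% had both Hemangioblast arrays above, 2446 had both below and 6901 overlapped. The median log2 difference of the 17 was 0.34, beside 0.04 over all probe sets. Of the 17, 13 were positive and 4 negative, and over all probe sets 6762 were positive and 5660 negative. Family probe sets share target sequence, so these are not 17 independent readings.

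The hCD4 arrays spread more than the Hemangioblast arrays over these probe sets. The median absolute log2 difference between the 2 hCD4 arrays was 0.38 for the members and 0.25 for all probe sets, while between the 2 Hemangioblast arrays it was 0.25 and 0.27. On 6 member probe sets the hCD4 arrays lay over 1.5-fold apart, and on 3 the Hemangioblast arrays did (both of Tap1 and the dim one of H2-K1). The 6 included the dim probe sets of H2-K1 and Tap1 and that of Tap2, which do not share a direction. The others were the dimmest of H2-D1, the dimmest of Tapbp and Psmb8, all of which were higher in hCD4 replicate 1. Irf1, an interferon-induced activator of class I genes, read 168 and 38.2 on hCD4 replicates 1 and 2. Other regulators of class I genes did not share a direction there. Examples, named after their values were seen, are Ifngr1 at 133 and 179 and Ifnar1 at 348 and 278. Whether these spreads are related was not tested.

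Genes around the members were read from lists of the pathway, by 1 probe set per gene. Of 28 genes that assist class I assembly or resemble class I heavy chains, 18 were measured. In the limma fit 0 passed and 2 had an unadjusted p under 0.05, beside 5.36% and 18.2% of all genes. The median log2 difference of the 18 was 0.12, beside 0.02 for all genes. Sec61a1, of the channel into the endoplasmic reticulum, came closest at 1243 and 1410 against 2106 and 1870 (-0.58, SE 0.150, adjusted p = 0.0773, or 0.0410 once dim probe sets were dropped). Psme1, a subunit of the PA28 activator of the proteasome, read 1036 and 1047 against 827 and 739 (0.41, SE 0.153, adjusted p = 0.224). Npepps, a peptide-trimming aminopeptidase, read 450 and 520 against 617 and 610 (-0.33, SE 0.171, adjusted p = 0.406). The class I-like gene H2-Q4 read 279 and 473 against 280 and 250 (0.44, adjusted p = 0.510).

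The standard catalytic subunits had negative differences without passing. Psmb5 read 1243 and 1023 on Hemangioblast arrays, against 1583 and 1580 on hCD4 arrays (-0.48, SE 0.156, adjusted p = 0.152). A dimmer probe set of Psmb5 overlapped between the groups, at 265 and 317 against 326 and 299 (-0.10, SE 0.208, adjusted p = 0.890). Psmb7 read 2867 and 2960 against 3142 and 4071 (-0.29, SE 0.162, adjusted p = 0.448), and Psmb6 read 2278 and 1827 against 2080 and 2431 (-0.14, SE 0.165, adjusted p = 0.783). Thus 0 of 3 passed in the limma fit, and 1 had an unadjusted p under 0.05. Of 11 further core subunits 0 passed and 0 had an unadjusted p under 0.05, with log2 differences of -0.32 to -0.07. Over all genes 5.36% passed and 18.2% had an unadjusted p under 0.05. Their dimmer probe sets gave both signs, at 0.22 and -0.05 for Psmb1 and 0.15 and -0.11 for Psmb4. Median scaling moved the median of all probe sets from 0.04 to -0.03.

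In the class II list 2 of 16 measured genes rose and 0 fell, beside 5.36% of all genes called in either direction. Both of the 2 encode lysosomal proteases. Ctss is also counted among the myeloid markers, and H2-Aa and H2-Ab1 among those of dendritic and B cells. Ctss, which cuts the invariant chain, read 774 and 952 on Hemangioblast arrays, against 27.0 and 20.8 on hCD4 arrays, with a log2 change of 4.46 (SE 0.260, adjusted p = 0.000122). Lgmn, which encodes legumain, read 666 and 799 against 222 and 178 (1.79, SE 0.205, adjusted p = 0.00212). Because Ctss was close to the constant 16 on hCD4 arrays, its log2 change depends on that constant. Ctsl, which encodes cathepsin L, read 2642 and 3009 against 2000 and 1985 (0.50, adjusted p = 0.105), and the costimulatory gene Cd86 read 245 and 273 against 167 and 133 (0.74, adjusted p = 0.163). The class II chains themselves did not pass. H2-Aa read 209 and 234 against 138 and 261 (0.20, adjusted p = 0.846), H2-Ab1 read 60.2 and 24.8 against 75.6 and 117 (-0.98, adjusted p = 0.279), and H2-Eb1 read 267 and 332 against 315 and 303 (-0.05, adjusted p = 0.959). Ciita, the master activator of class II genes, read 84.7 and 94.4 against 86.1 and 52.0 (0.34, adjusted p = 0.729). These 4 were named after their values were seen.

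Of the regulators of class I genes, 1 of 19 measured genes rose and 0 fell, a share close to the 5.36% called over all genes. Irf8, an interferon regulatory factor of myeloid and B cells, read 488 and 577 on Hemangioblast arrays, against 218 and 222 on hCD4 arrays (log2 change 1.21, SE 0.197, adjusted p = 0.0130). It missed the threshold when Hemangioblast replicate 2 (0.0747) or either of the hCD4 arrays (0.0800 and 0.0783) was dropped, and when the variance model had no trend (0.0662). Jak2 and Jak1, kinases of the interferon receptors, read 570 and 374 against 251 and 239 (0.87, adjusted p = 0.0932) and 634 and 735 against 416 and 459 (0.63, adjusted p = 0.1003). Jak2 passed with dim probe sets left out (0.0330) and without Hemangioblast replicate 2 (0.0465). Irf9, another interferon regulatory factor, read 247 and 269 against 153 and 158 (0.67, adjusted p = 0.178). Irf1 read 65.6 and 78.2 against 168 and 38.2 (-0.19, SE 0.535, adjusted p = 0.933).

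**Figure D3:**
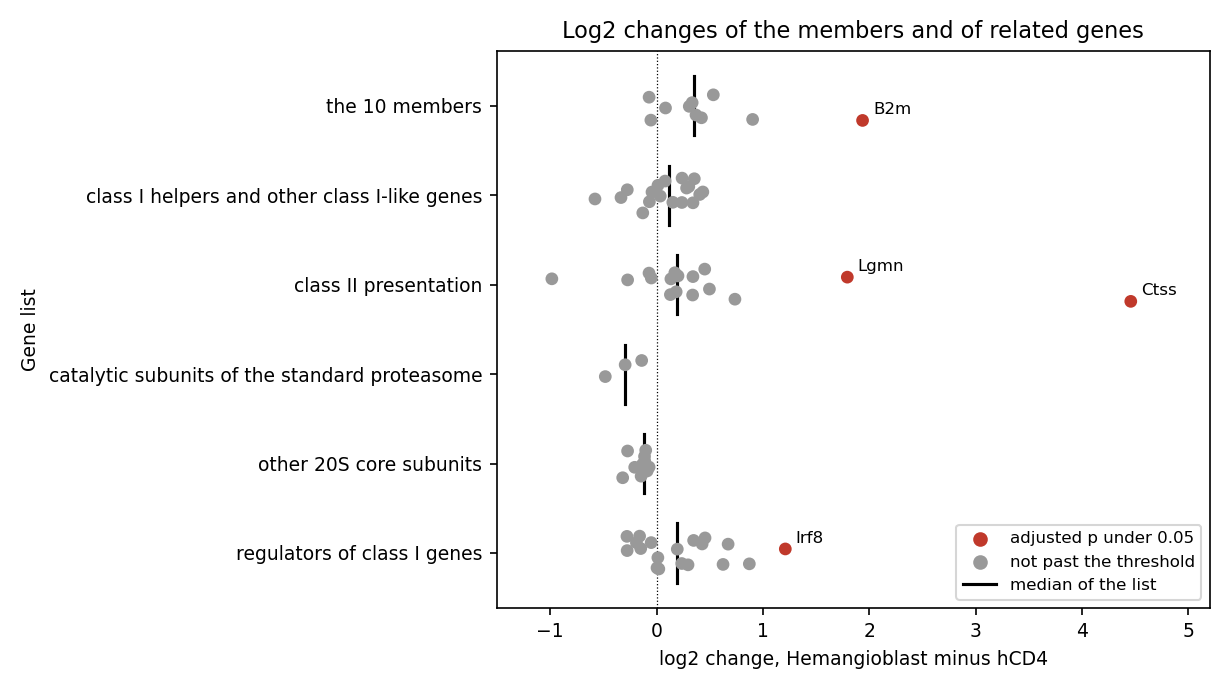
Log2 change (Hemangioblast minus hCD4) of the 10 member genes and of the genes of 5 related lists, 1 point per gene, with red for an adjusted p under 0.05 and a black line at each median. B2m (1.94), Lgmn (1.79), Ctss (4.46) and Irf8 (1.21) are the coloured points, and the proteasome lists lie below 0 in this fit without passing.

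Many markers of myeloid and red cells were also higher on the Hemangioblast arrays. Of 14 measured macrophage and myeloid markers 10 rose and 0 fell, beside 5.36% of all genes called in either direction. The summed scaled intensity of the 14 was 10367 to 10996 on the Hemangioblast arrays and 1539 to 1853 on the hCD4 arrays. Examples are the adaptor gene Tyrobp (log2 change 4.95, SE 0.202, adjusted p = 3.72e-05) and the receptor gene Csf1r (2.99, SE 0.225, adjusted p = 0.000333). Of 8 measured red cell markers 6 rose and 0 fell, with summed intensities of 37733 to 40329 against 13173 to 14008. Of 9 measured ES cell markers 2 fell and 0 rose (4381 to 4478 against 5618 to 7436). Most of the ES cell sum was Esrrb, at 3343 and 3476 against 3165 and 3579. Of the 9 ES cell markers 7 were higher in hCD4 replicate 1 than in replicate 2, among them Pou5f1 (1526 and 585) and Dppa5a (1397 and 745), both of which fell. Further probe sets of Pou5f1, Klf4 and Nanog did not pass. That of Pou5f1 read 76.0 and 34.1 against 21.9 and 16.9 (log2 difference 0.94), and that of Klf4 29.9 and 54.7 against 11.8 and 29.1 (0.69). That of Nanog read 86.9 and 73.4 against 444 and 141 (-1.49), while its counted probe set overlapped between the groups (-0.02). B2m changed by 2.02 without hCD4 replicate 1 and by 1.85 without hCD4 replicate 2. The myeloid marker Fcer1g read 0.936 on hCD4 replicate 1, from a deposited value of exactly 1, which 145 to 159 probe sets per array share. The part of these lists in the B2m difference was not tested.

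Markers of dendritic and B cells, and of T and natural killer cells, did not pass. Of 9 measured dendritic and B cell markers 0 passed in the limma fit and 2 had an unadjusted p under 0.05 (2680 to 2917 against 2509 to 2880), and of 10 T and natural killer cell markers 0 passed and 0 had an unadjusted p under 0.05 (826 to 1047 against 774 to 780). Of 10 fibroblast markers, included because STO feeder cells are fibroblasts, 1 rose and 1 fell (2307 to 2857 against 2264 to 2466). Of 9 endothelial markers, Tie1 rose and Kdr fell (4351 to 5055 against 4858 to 5779). Over all genes, 5.36% were called in either direction and 18.2% had an unadjusted p under 0.05. The myeloid genes Cybb (log2 difference 0.07, adjusted p = 0.959) and Fcgr3 (0.16, adjusted p = 0.935), named after their values were seen, did not pass.

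**Figure D4:**
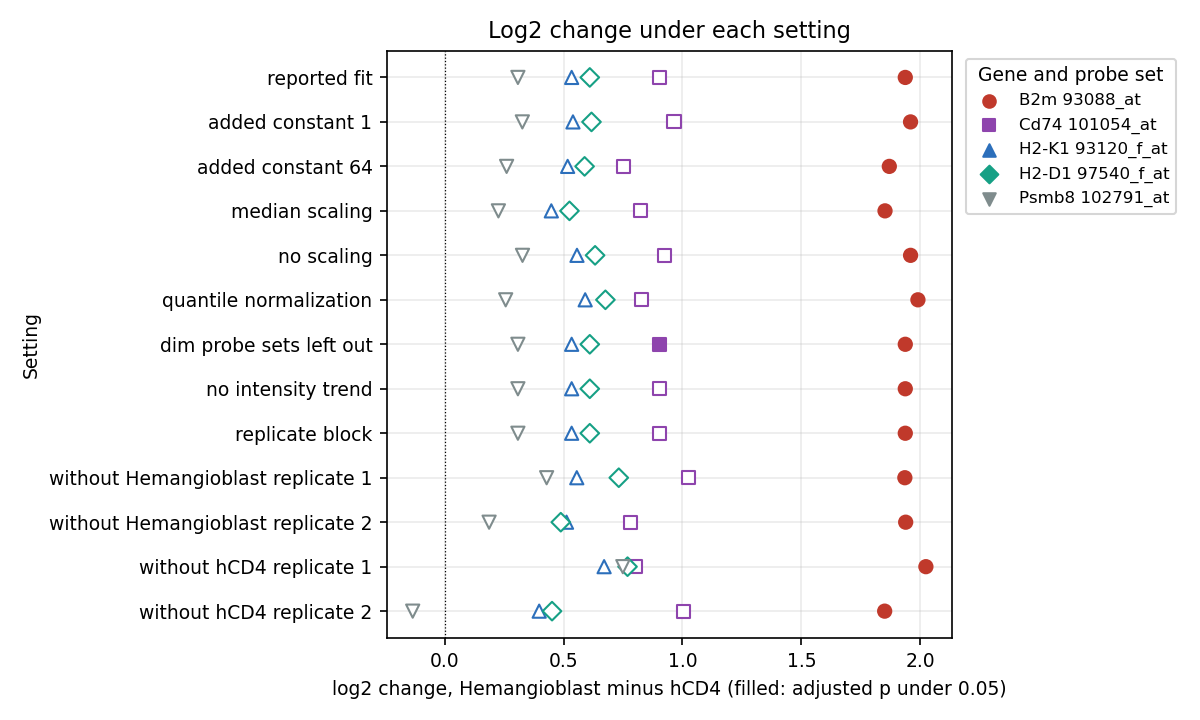
Log2 change (Hemangioblast minus hCD4) of 5 member probe sets under the reported fit and 12 alternatives, with filled symbols for an adjusted p under 0.05. B2m is filled throughout, from 1.85 to 2.02, Cd74 is filled only with dim probe sets left out, and Psmb8 turns negative without hCD4 replicate 2 (-0.13).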

How the data were processed

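For each array the authors deposited linear intensity values by probe set, made from biotin-labelled cRNA of 20 ug total RNA without amplification, per the labels. For software, background correction and scaling, nothing is given in the sources used here. All 4 value columns were used. Of 12488 probe sets, 66 maker's controls were left out. Arrays were brought to the mean of their trimmed means (2% off each end), and log2(scaled intensity + 16) was fitted with limma 3.58.1 in R 4.3.3 (lmFit, eBayes with an intensity trend, no block, two-sided, no filter on dim probe sets). An exact permutation test of 2 against 2 cannot go below 0.333, so none was used.

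Genes were named from the platform annotation: 10833 tested probe sets have 1 symbol, 396 several and 1193 none. RefSeq identifiers held 10817 of the first and changed 0 symbols. A list gene is represented by its probe set with the highest mean log2 value. All probe sets of the members were reported, with up to 4 genes of each pathway list by smallest adjusted p, Psmb5, Psmb6, Psmb7, Irf1 and Irf8. Members and lists were chosen with earlier results of these data known. Lists have no set test. Protein identities that had been planned were not computed here. The fit was tested on simulated data. Alternatives changed the added constant (1, 64), scaling (median, none, quantile), the dim filter (100 on at least 2 arrays), the trend, the block and the probe set rule, or left out 1 array. Figures used matplotlib 3.10.9 in Python 3.11.15.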

Additional observations from a re-analysis of the deposited data

How the results depend on the processing

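The count of all probe sets past the threshold (556) was 272 without scaling, 220 without an intensity trend, 871 with dim probe sets left out, and 219 to 517 with 1 array left out. It was 710 with the titles' replicate number as a replicate block, under which B2m was again the only member to pass (adjusted p = 0.000382). The deviations of same-numbered arrays from their group means correlated at -0.0078 over all probe sets. With 2 arrays a group, this value cannot settle whether the numbers pair the arrays. With dim probe sets left out 2 member probe sets and 2 member genes passed (B2m and Cd74), and 5 in place of 3 pathway genes; 8573 probe sets were then tested. The log2 differences of 7 member probe sets, none of them called, changed sign with 1 array left out and under no other setting: -0.82 to 0.35 for the dimmest of H2-K1, -0.36 to 0.26 for Tap2, -0.11 to 0.27, -0.44 to 0.062 and -0.18 to 0.60 for Tapbp from its brightest to its dimmest, -0.13 to 0.75 for Psmb8 and -0.21 to 0.070 for Psmb10. Psmb6 (-0.30 to 0.019), Psma5 (-0.47 to 0.056) and Irf1 (-1.07 to 0.69) did so too. The other 10 member probe sets kept their sign under every alternative that tested them. Where leaving out an array leaves a group with 1 array, that array is assumed to vary like the others. The causes of these differences between settings were not tested. Low intensities such as those of Tap2 and Psmb9 limit what these arrays can show.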

Other observations

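Another 3 probe sets name a member among several gene symbols and were kept out of the counts. The first, which lists H2-D1 and H2-K1 among 10 symbols of class I heavy chains and relatives, read 361 and 558 on Hemangioblast arrays, against 357 and 294 on hCD4 arrays (log2 difference 0.45, SE 0.244, adjusted p = 0.438 in the limma fit). The second, with H2-D1 among 5 symbols of the H2-Q family and its relatives, read 125 and 64.7 against 68.0 and 104 (0.09, SE 0.380, adjusted p = 0.960). The third, with H2-K1 among 4 symbols, read 6.89 and 14.0 against 9.04 and 1.09, close to the floor of the arrays.

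Ifnar2, a chain of the type I interferon receptor, differed between its own probe sets and was looked at after its values were seen. Its dimmer probe set read 207 and 260 on Hemangioblast arrays, against 78.2 and 81.7 on hCD4 arrays (log2 change 1.37, SE 0.273, adjusted p = 0.0292). The brighter probe set read 475 and 420 against 282 and 380 (0.43, SE 0.212, adjusted p = 0.384).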
